A study of Drosophila melanogaster with 2 samples.

Results

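The Mediator complex and the general RNA polymerase II (Pol II) factors were described here as 62 protein-coding genes of Drosophila melanogaster, chosen by symbol from the Ensembl annotation (MED or Taf followed by a digit, or symbols that begin with TfII or Polr2), out of 13945 protein-coding genes on the arms that carried peaks. They comprise 25 Mediator genes, 15 TAF genes, 9 TfII genes and 13 Polr2 genes. The measurement is chromatin immunoprecipitation with sequencing (ChIP-seq) of the DM-domain protein dmrt93B, so each value tells whether a dmrt93B peak lay at the start of a member gene, not how the gene was expressed. Both samples belong to 1 group, dmrt93B-GFP: whole wandering larvae of the third instar, both sexes pooled, age given as unknown, from a transgenic line that stably carries dmrt93B with GFP at its C-terminal end. There are 2 biological replicates and no untreated or untagged group was analysed here. The labels conflict: the free text of both samples speaks of an input control, but title, assay name and antibody label (dmrt93B) are those of a transcription factor ChIP, and the values given are those of libraries labelled as dmrt93B ChIP. Because whole larvae were used, strong binding in few cells and weak binding in many cannot be told apart.

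Pol II transcribes protein-coding genes. It is placed at the start site by general factors: TFIID, which contains the TATA-binding protein and the TAFs, followed by TFIIA, TFIIB, TFIIE, TFIIF and TFIIH. Mediator is a large coactivator with head, middle and tail modules that bridges DNA-bound activators and Pol II. The genes of this machinery are used in most cell types.

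A dmrt93B peak lay at the promoter of 17 of the 62 genes, and the sequence under the strongest of them was rich in A and T. A promoter peak here is a peak of the authors' optimal list (peaks past an irreproducible discovery rate, IDR, threshold) with its summit no more than 500 bp from a transcription start site (TSS) in the annotation. The 101 bases centred on the summit are given for 8 members, in dm6 coordinates and on the strand of the member gene, to show what the immunoprecipitated promoters look like. Capitals mark matches to the motifs searched, namely TATAAA, which reads TTTATA on the other strand, TAATTA, and GAGAG, which reads as CTCTC on the other strand. Sequences with no capitals held none of the 9 motifs searched.
MED27, chr3R:5654987-5655087, plus strand: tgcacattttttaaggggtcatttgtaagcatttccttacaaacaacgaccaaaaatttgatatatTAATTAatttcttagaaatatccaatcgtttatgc
Polr2B, chr3R:14125684-14125784, plus strand: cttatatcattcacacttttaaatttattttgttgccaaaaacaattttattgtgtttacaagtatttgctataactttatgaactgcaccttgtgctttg
MED17, chr3R:18188911-18189011, plus strand: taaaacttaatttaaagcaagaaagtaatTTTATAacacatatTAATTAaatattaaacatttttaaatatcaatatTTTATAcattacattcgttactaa
Polr2H, chr3L:21728708-21728808, plus strand: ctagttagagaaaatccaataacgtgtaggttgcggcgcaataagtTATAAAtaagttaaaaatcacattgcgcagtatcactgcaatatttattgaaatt
MED30, chr3L:654221-654321, minus strand: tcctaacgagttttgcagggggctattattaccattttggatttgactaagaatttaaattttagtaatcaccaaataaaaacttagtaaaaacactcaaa
Taf2, chr3L:9888954-9889054, minus strand: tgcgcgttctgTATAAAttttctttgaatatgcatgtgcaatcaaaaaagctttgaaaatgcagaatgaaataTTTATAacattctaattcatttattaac
Polr2J, chr2L:17410447-17410547, minus strand: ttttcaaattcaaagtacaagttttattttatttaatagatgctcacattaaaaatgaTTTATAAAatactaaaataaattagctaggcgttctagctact
TfIIA-S, chr3R:23891087-23891187, minus strand: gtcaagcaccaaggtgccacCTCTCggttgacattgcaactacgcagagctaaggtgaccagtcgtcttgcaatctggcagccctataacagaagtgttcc
The first 7 windows have long runs of A and T, the longest being 19 bases at MED17, whereas the longest run at TfIIA-S is 5 bases.

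In the optimal list the share of genes with a promoter peak was highest for Mediator among the 4 groups, an order that turned in replicate 2 (Polr2 46.2%, Mediator 44%) and among the 2079 strongest optimal peaks (3 of 13 Polr2 genes, 4 of 25 Mediator genes). In the optimal list, 17 of 62 members had a promoter summit (27.4%, 95% Wilson interval 17.9 to 39.6), where the share over all protein-coding genes was 13.1%. The count was 10 of 25 for Mediator (40.0%, interval 23.4 to 59.3), 3 of 13 for Polr2 (23.1%, 8.18 to 50.3), 3 of 15 for TAF genes (20%, 7.05 to 45.2) and 1 of 9 for TfII genes (11.1%, 1.99 to 43.5). The interval lies above the share of all genes for the 62 members and for Mediator, and includes it for the other 3 groups. These intervals cover counting error only, overlap one another, and were not followed by a test between groups.

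To obtain a value per replicate, each replicate's own list of 30000 relaxed entries was ranked by signal and reduced to its strongest 4159 entries, the length of the optimal list. Replicate 1 had a promoter summit at 14 of 62 members (22.6%, interval 13.96 to 34.4), against 10.1% of all genes. Replicate 2 had one at 25 members (40.3%, interval 29.0 to 52.7), against 17.1% of all genes. Members stood 12.5 percentage points above all genes in replicate 1 and 23.2 in replicate 2 (mean 17.8 ± 7.57, SD, n = 2). The direction was the same in both, while the size was uncertain. The count was higher in replicate 2 in every group, as it was over all genes. Mediator had 7 of 25 in replicate 1 and 11 in replicate 2, Polr2 genes had 3 and 6 of 13, TAF genes 3 and 5 of 15, and TfII genes 1 and 3 of 9. Both replicates had a promoter summit at 12 members (19.4%, interval 11.4 to 30.9), against 8.36% of all genes.

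**Figure D1:**
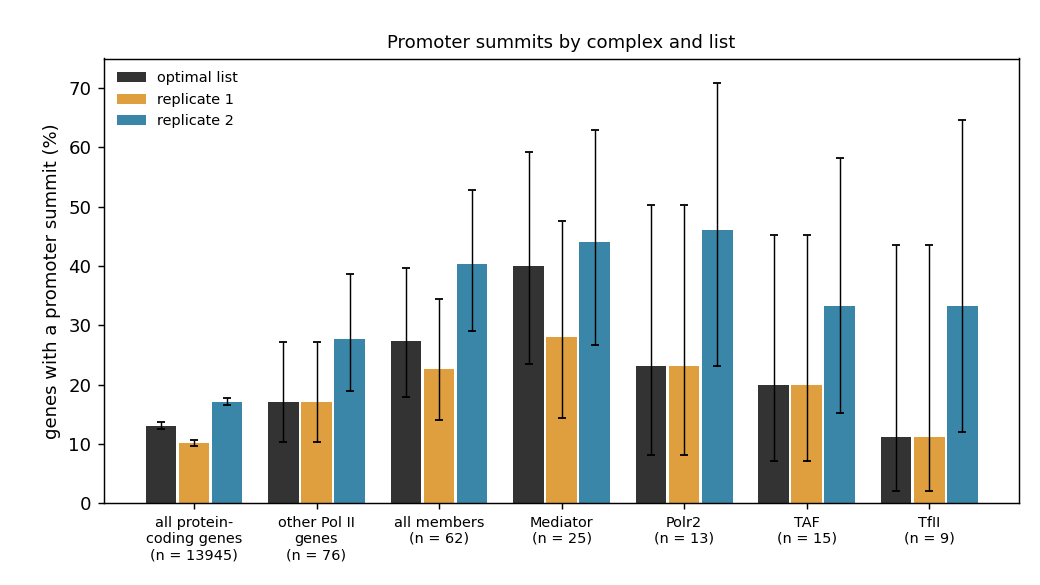
Share of genes (percent) with a promoter summit in the optimal list and in the strongest entries of each replicate, for all protein-coding genes, other genes of the Pol II machinery, the 62 members and the 4 groups of members; error bars are 95% Wilson intervals. The other genes of the machinery include 20 subunits and factors of Pol I and Pol III. Mediator reaches 40.0% in the optimal list, and the bars of all 4 groups are taller in replicate 2 than in replicate 1.

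Below this strong part of the lists, the members differed between replicates. Of the entries of replicate 1, weak ones included, summits lay at the promoters of 14 members (22.6%), against 24.3% of all genes, and all 14 were already among the strongest 4159. Over all protein-coding genes, 41.5% of those with any promoter entry in replicate 1 had one in its strong part. The whole list of replicate 2 had promoter entries at 46 members (74.2%), against 46.4% of all genes, and the whole pooled list at 19 members (30.6%), against 30.4%. The pooled list thus held only 2 members beyond the optimal ones, TfIIS (rank 8124) and Taf8 (rank 8406), and over its whole length the members' share was near that of all genes.

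The strongest promoter peak of the set was at MED27 (FBgn0037359), which encodes a Mediator subunit. Its summit lay at 3R position 5655037 (peak 5654833 to 5655191), 102 bp upstream of the TSS. The signal, a peak strength in units of the authors' caller, was 766 in the optimal list (rank 238), 478 in the list of replicate 1 (rank 194) and 294 in that of replicate 2 (rank 333). The scales of separate lists are not known to be comparable, so ranks are used across them. MED27 is among the strongest entries of every list, and no member ranked above it.

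MED17 (FBgn0038578) encodes a central subunit of the head module. Its summit at 3R position 18188961, 111 bp upstream, had a signal of 572 at rank 481 of the optimal list, with rank 474 in replicate 1 and rank 461 in replicate 2. It was the member whose rank moved least between lists, together with TfIIA-S. MED30 (FBgn0035149), a subunit found in animals, had its summit 182 bp upstream with a signal of 421 at rank 842, and ranks of 864 and 747 in replicates 1 and 2. These 3 Mediator genes were among the 1039 strongest entries of the optimal list.

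Polr2B (FBgn0262955) encodes the second-largest subunit of Pol II, which forms the active centre together with the largest one. Its summit lay at 3R position 14125734, 57 bp upstream, the closest to a TSS among the members, with a signal of 670 at rank 340 and ranks of 274 and 448 in the replicates. Polr2H (FBgn0037121), a subunit that Pol I, II and III share, had its summit 174 bp upstream with a signal of 508 at rank 607 (ranks 479 and 880). Polr2J (FBgn0032634), a small subunit, followed with 264 at rank 1636 and a summit 91 bp upstream (ranks 1422 and 2086). The 3 Polr2 peaks were therefore all among the 2079 strongest of the optimal list. The gene for the largest subunit, Polr2A, was not among them.

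Among TAF genes, Taf2 (FBgn0011836), whose product is known to contact the initiator region of core promoters, had the strongest peak. Its summit at 3L position 9889004, 321 bp upstream, had a signal of 387 at rank 959 (ranks 724 and 1405). Taf11 and Taf13 encode histone-fold proteins that pair within human TFIID, and both had weaker peaks. Taf11 had a signal of 191 at rank 2389 (ranks 2035 and 2721), with a summit 85 bp upstream. For Taf13 the signal was 133 at rank 3462, with rank 3203 in replicate 1 and rank 4857 in replicate 2, where it fell outside the strong part of the list. TfIIA-S (FBgn0013347), the small subunit of TFIIA, was the TfII gene with a peak, at 3R position 23891137, 77 bp upstream, with a signal of 246 at rank 1774 (ranks 1751 and 1760).

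The other 7 Mediator peaks had signals of 241 or less, and 3 of them had no promoter entry in replicate 1. MED7 and MED21 encode subunits that pair as a hinge of the middle module in yeast. MED7 had a signal of 241 at rank 1827 (ranks 1525 and 2120), with a summit 126 bp upstream. MED21 had 144 at rank 3205 (rank 2834 in replicate 1 and rank 4722, outside the strong part, in replicate 2). MED25, a subunit contacted by activators in human cells, had 186 at rank 2464 (ranks 2483 and 2169), and MED4, of the middle module, had 140 at rank 3305 (ranks 2833 and 3893).

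MED16 (tail module), MED19 and MED8 (head module) were in the optimal list with signals of 197, 194 and 132. No entry of the whole replicate 1 list lay within 500 bp of their TSSs, the nearest being 3123, 8314 and 6042 bp away. In replicate 2 they ranked 3194, 3867 and 4146, the last close to the end of the strong part. The MED8 summit also moved most, from 369 bp upstream in the optimal list to 216 bp upstream in replicate 2. When optimal peaks were kept only where both whole replicate lists had an entry within 200 bp, 7 Mediator genes and 14 of the 62 members had a promoter summit, against 9.54% of all genes.

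**Figure D2:**
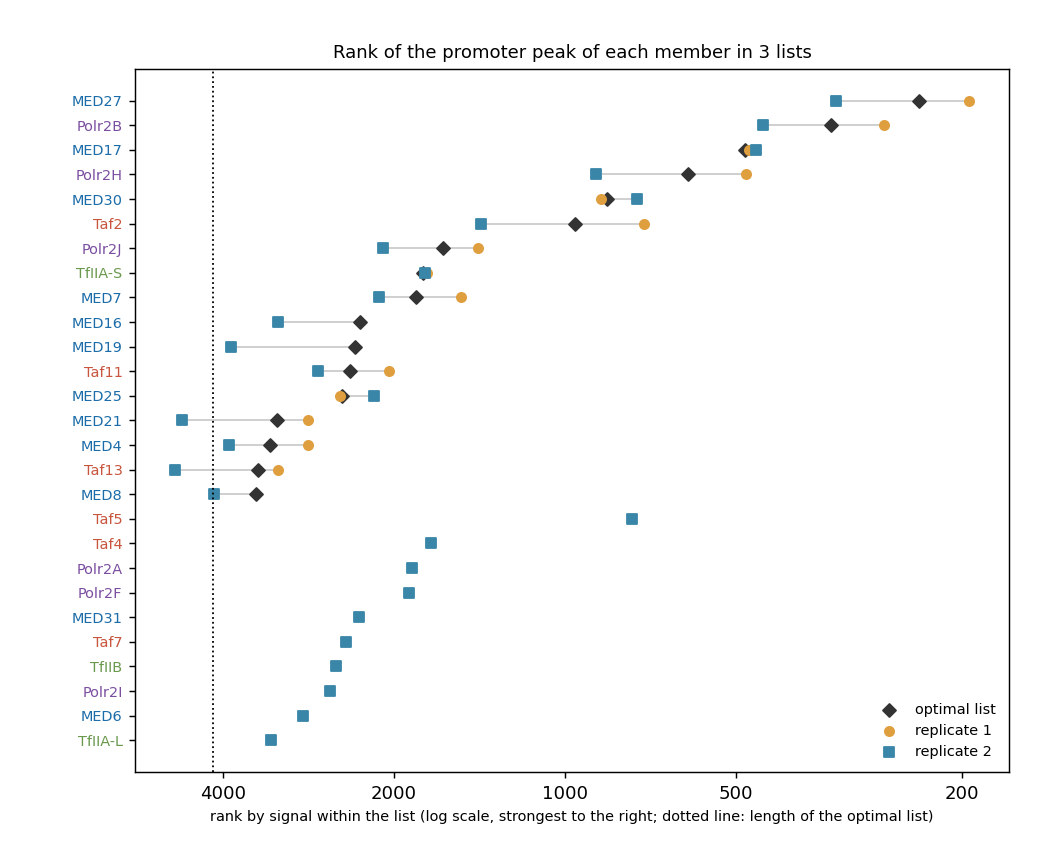
Rank by signal (log axis, strongest to the right) of the promoter peak of each member with a promoter summit in the optimal list or in the strong part of a replicate list; label colours mark Mediator (blue), Polr2 (purple), TAF (red) and TfII (green), and the dotted line is the length of the optimal list. MED27 leads at rank 238 of the optimal list, and the 10 genes at the bottom, from Taf5 to TfIIA-L, have a symbol for replicate 2 only.

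Within the optimal list the members spanned ranks 238 to 3503. Taking the strongest promoter peak of each gene, the median signal of the 17 members was 241 (lowest 132, highest 766). It was 286 for the 1804 other protein-coding genes with a promoter summit, whose highest value was 4440, and 217 for all 4159 optimal peaks. Of the 17, 6 were among the 1039 strongest entries (35.3%, against 39.5% of the other genes) and 9 among the 2079 strongest (52.9%, against 64.97%). Of the 12 members in the strong parts of both replicates, 9 ranked higher in replicate 1 and 3 (MED17, MED25 and MED30) higher in replicate 2.

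Members that had strong promoter entries in replicate 2 alone included central parts of the machinery. Taf5, which encodes a scaffold subunit of TFIID, ranked 761 in replicate 2 with a summit 155 bp upstream. The nearest entry in the replicate 1 list was 4767 bp away and the nearest pooled entry 4838 bp away. Taf4, another TFIID scaffold gene, ranked 1717, and Taf7, whose human counterpart binds TAF1, ranked 2423.

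Polr2A, the gene of the largest and catalytic subunit, ranked 1857 in replicate 2 with a summit 177 bp upstream, and its nearest replicate 1 entry was 27497 bp away. Polr2F, another subunit shared by the 3 polymerases, ranked 1878 and Polr2I ranked 2585. The 2 TfII genes were TfIIB, which links the TATA-binding protein to Pol II, at rank 2531, and TfIIA-L, the large subunit of TFIIA, at rank 3287. The Mediator genes were MED31 (middle module) at rank 2300 and MED6 (head module) at rank 2895, the latter with its summit 54 bp downstream of a TSS. None of these 10 genes had an entry within 500 bp of a TSS in the list of replicate 1 or in the pooled list.

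This imbalance was near that of all genes. Of the 25 members with a strong promoter summit in replicate 2, 13 had no promoter entry in the whole list of replicate 1 (52%), and of all 2390 such protein-coding genes 1127 did not (47.2%). As a share of all genes tested, strong summits in replicate 2 without a replicate 1 entry were found at 13 of 62 members (21.0%), against 8.08% of all genes. The read depth of the replicates is unknown, and its part in this difference was not tested.

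The remaining 35 members had no strong promoter entry in any list. Weak entries of replicate 2, beyond rank 4159, lay at the promoters of MED1, MED10, MED11, MED14, MED22, MED24, MED26, MED28, Polr2C, Polr2E, Taf3, Taf8, Taf9, Taf10, Taf10b, TfIIEalpha, TfIIEbeta, TfIIFalpha and TfIIS. No promoter entry of any list lay at 16 genes: MED9, MED15, MED18, MED20, MED23, Polr2D, Polr2G, Polr2K, Polr2L, Polr2M, Taf1, Taf6, Taf12, Taf12L, TfIIA-S-2 and TfIIFbeta. They include Taf1, the largest TFIID subunit gene, whose nearest optimal summit was 112815 bp from its TSS. For the 45 members without an optimal promoter summit this distance ran from 529 to 112815 bp, with a median of 14587 bp. The nearest miss was MED15, a tail subunit gene, with a summit 529 bp upstream (rank 2157). Of the summits inside the limit of 500 bp, the farthest from the member's TSS were MED8 at 369 bp, Taf2 at 321 bp and MED19 at 303 bp.

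All 17 optimal summits lay upstream of the member's TSS, from 57 to 369 bp, with a median position of -111 bp. Other genes with a promoter summit had a median of -159 bp, and 90.1% of their summits were upstream. In the strong parts of the replicate lists the members' median position was -94.5 bp in replicate 1 and -141 bp in replicate 2. For the 12 members found in both, the summits of the replicates lay a median of 11 bp apart, 6 of them within 10 bp, and at most 90 bp apart. No optimal summit lay inside any of the 62 genes, which are short, with a median length of 1252 bp and a longest of 10463 bp. Among the 12000 other protein-coding genes no longer than that, 4.62% had a summit within the gene, and the Wilson interval of 0 of 62 reaches 5.83%. Those genes had a longer median length, 1851 bp, so the 2 sets are not matched for length.

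Most of these peaks stood between the member and a neighbour transcribed the other way. At 14 of the 17 members the summit was also within 500 bp of the TSS of another protein-coding gene (82.4%, against 53.5% of the 1804 other genes), and in all 14 cases that gene was on the opposite strand. The 2 start sites were 107 to 464 bp apart, with a median of 276 bp, and the summit lay between them in 12 of 14 pairs. At Polr2H and Taf13 it lay 48 and 18 bp inside the transcribed side of the neighbour, CG11247 and nesd. A second optimal summit was not found at any of the 17 promoters, so each of these pairs shares 1 peak. The 53.5% of other genes counts neighbours on either strand. How often their neighbours were on the opposite strand, or their summits between the 2 start sites, was not computed.

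The neighbour's TSS was the nearer one in 7 of the 14 pairs. This split was near that of other genes, where 499 of the 965 with a shared summit were not the nearest gene. Of all genes with a promoter summit, 58.8% of the 17 members and 72.3% of the others were the nearest gene. The 7 members with a nearer neighbour are MED8 (CG8929), MED19 (CG7430), MED30 (Rev1, a translesion DNA polymerase gene), Polr2H (CG11247), Taf2 (CalpB, a calpain protease gene), Taf11 (und) and Taf13 (nesd). At Taf11 the summit was 22 bp upstream of und and 85 bp upstream of Taf11. The member was nearer at MED7 (Cap-H2, a condensin II subunit gene), MED16 (CG11170), MED17 (CG12321), MED25 (Hs6st), MED27 (elm), Polr2B (140up) and Polr2J (CG15141). MED4, MED21 and TfIIA-S had no other protein-coding TSS within reach. The MED4 summit lay nearer to the TSS of an opposite-strand noncoding RNA gene, asRNA:CR43470 (79 bp), than to that of MED4 (192 bp). Counting a summit only for its nearest protein-coding gene left 10 members (7 Mediator, 2 Polr2 and 1 TfII) and 0 of 15 TAF genes, against 9.69% of all genes.

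**Figure D3:**
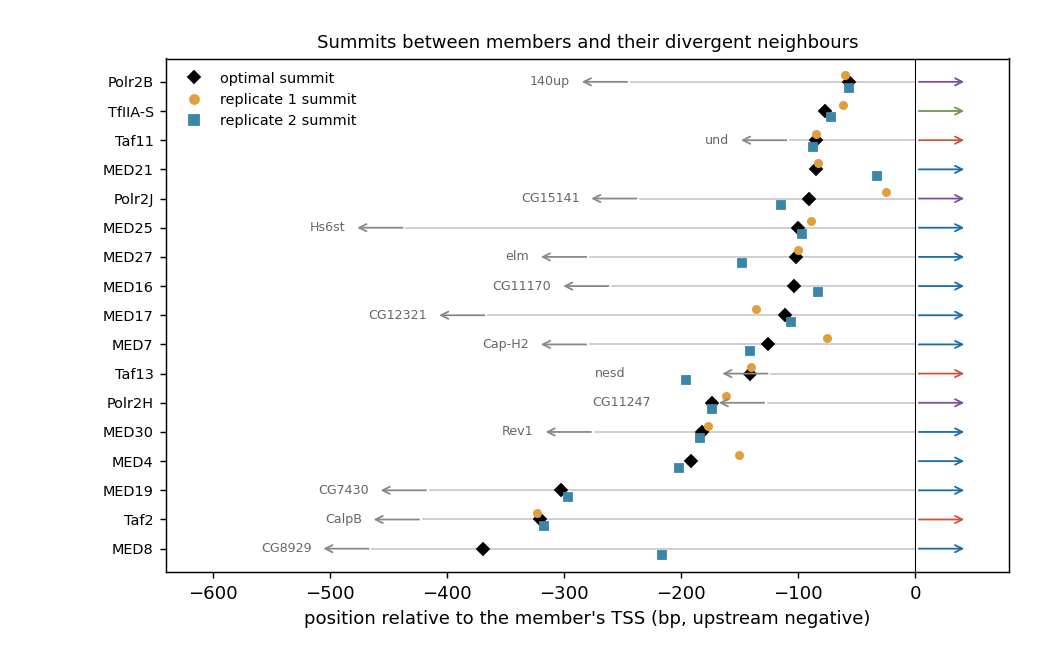
Position (bp, upstream negative) of the optimal summit and of the strongest promoter summit of each replicate relative to the TSS of the 17 members with an optimal promoter summit; arrows give the direction of transcription of the member (coloured, as in the plot of ranks) and of the protein-coding neighbour (grey, at its own TSS). The optimal summits sit between -57 and -369 bp, and 12 of 14 are between the 2 start sites of a divergent pair.

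Members have such neighbours more often than genes at large. An opposite-strand protein-coding TSS lay within 500 bp of 38 of 62 members (61.3%), against 27.8% of all protein-coding genes. Among genes with such a neighbour, 14 of 38 members had an optimal promoter summit (36.8%, interval 23.4 to 52.7), against 23.6% of all such genes (22.3 to 24.96). Among genes without one, 3 of 24 members had it (12.5%, interval 4.34 to 31.0), against 9.0% (8.46 to 9.57). Within each class the members' interval includes the share of all genes, and neither difference was tested. Members also had a single annotated TSS more often, in 56 of 62 genes (90.3%) against 73.4% of the others.

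By arm, an optimal promoter summit was found at 6 of 15 members on 3L (40%, against 14.3% of all protein-coding genes on that arm), 6 of 21 on 3R (28.6% against 13.9%), 3 of 11 on 2L (27.3% against 12.6%) and 2 of 7 on 2R (28.6% against 10.6%). None of the 6 members on the X (MED18, MED22, Polr2A, Taf8, Taf9 and TfIIA-S-2) and neither of the 2 on chromosome 4 (MED26 and Taf3) had one. Over all protein-coding genes the share was 14.3% on the X and 5% on chromosome 4, and the Wilson interval of 0 of 6 reaches 39.0%, which includes the former.

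The 101 bases under the members' summits had a median GC content of 26.7%, from 13.9% at MED17 to 52.5% at TfIIA-S. TfIIA-S stood alone, since the next highest was MED21 with 33.7%. Other genes with a promoter summit had a median of 30.7% (quartiles 25.7 and 37.6). Genes without an optimal promoter summit were each given a mean GC over windows at the 17 members' distances from their most upstream TSS. By this mean the 45 members without one had a median of 34.9%, and other genes without one 37.0%. These averages over 17 positions are not the same measure as a single window centred on a summit. Members with a summit were not measured this way. In bins of 20 bp the members' mean was lowest just downstream of the summit, at 22.6% ± 12.1 (SD over 17 genes), and reached 47.6% ± 17.2 near 490 bp upstream and 49.4% ± 17.9 near 490 bp downstream. The dip covered the summit. Its means were 32.6% ± 13.6 near 150 bp downstream and 37.9% ± 14.8 near 150 bp upstream.

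**Figure D4:**
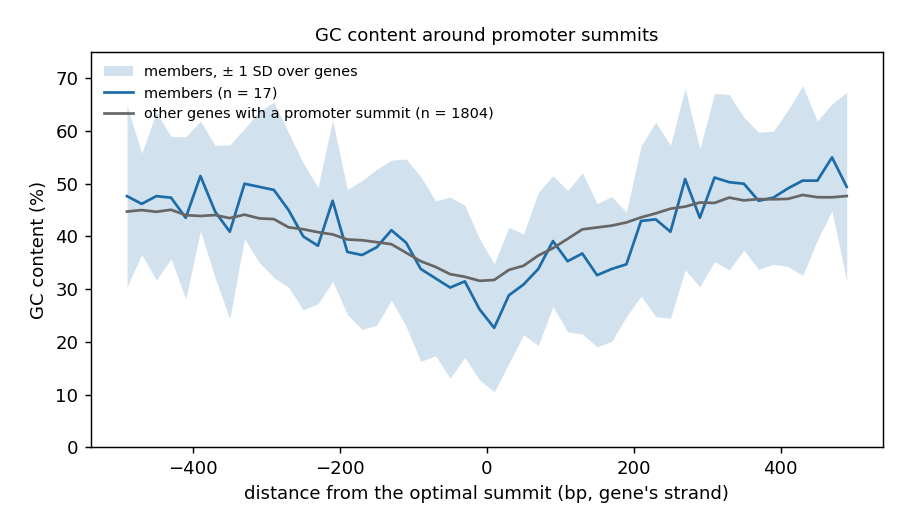
Mean GC content (percent) in bins of 20 bp around the optimal summit on the gene's strand, for the 17 members (blue, shading 1 SD over genes) and for 1804 other genes with a promoter summit (grey). Both curves fall at the summit, the members to 22.6% and the others to 31.6%.

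Of the 9 motifs searched on both strands in these windows, TATAAA was the most frequent. It occurred in 8 of 17 members' windows (47.1%), at MED8, MED17, MED19, MED21, Polr2H, Polr2J, Taf2 and Taf11, and in 25.1% of the windows of other genes with a promoter summit. TATAAA consists of A and T alone and the members' windows had the lower GC content, whose part in this was not tested. Matches of different motifs may overlap, and a match describes letters, not a bound site. TAATTA, a homeodomain core, was in 3 windows (MED17, MED19 and MED27, 17.6% against 12.7%). The initiator letters TCAGTT were in 1 window (MED8, against 4.66%) and GAGAG in 1 (TfIIA-S, against 6.32%). The 8 letters of the DRE, TATCGATA, and the core of Motif 1, GGTCACAC, were in no member's window, against 2.77% and 1.44% of the other genes' windows. The DM-domain letters ACAATGT and TGTATCA (1.61% and 1.33% of other windows) and the E-box CACGTG (0.831%) were also in none of the 17, where the Wilson interval of a count of 0 reaches 18.4%.

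Other genes of the transcription machinery do not carry these symbols. Those listed here, called other Pol II genes, include 20 subunits and factors of Pol I and Pol III. Of 85 listed symbols, 76 matched the annotation, and 13 of those 76 had an optimal promoter summit (17.1%, interval 10.3 to 27.1, against 13.1% of all genes). Among its strongest 4159 entries, replicate 1 had 13 (17.1%, interval 10.3 to 27.1, against 10.1% of all genes) and replicate 2 had 21 (27.6%, 18.8 to 38.6, against 17.1%). The interval includes the share of all genes in the optimal list and lies above it in each replicate. The Pol I and Pol III genes held 3 of the 13 in the optimal list. They held 4 of the 13 in replicate 1 and 3 of the 21 in replicate 2. Intervals without them were not computed. The count was 3 of 8 for pausing factors and P-TEFb, 3 of 14 for Integrator, 2 of 9 for elongation factors, 3 of 20 for subunits and factors of Pol I and Pol III, 1 of 10 for TFIIH and 1 of 4 for the Mediator kinase module. It was 0 of 4 for the PAF1 complex, 0 of 4 for testis homologues of TAFs and 0 of 3 for the TATA-binding protein family, groups so small that the Wilson intervals reach 49.0%, 49.0% and 56.1%.

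Several of these genes had stronger peaks than any member, but the peak was often nearer to a neighbour. Ssl1, a TFIIH subunit gene, had a signal of 2256 at rank 10, where the nearest TSS was that of Chro. Nelf-E, a subunit gene of the negative elongation factor, had 873 at rank 187, nearest to the ribosomal protein gene RpL14. Bdp1 (1174), IntS11 (1124), Brf (739), Polr3E (469), IntS6 (452), skd (210) and lilli (118) also had a nearer protein-coding neighbour. By the strongest promoter peak of each gene, 4 genes were themselves nearest. They were bin3, a methyltransferase of the 7SK RNA (765, rank 241), TH1, another negative elongation factor subunit (557, rank 505), the Integrator gene IntS3 (136) and dre4, a subunit of the histone chaperone FACT (121).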

How the data were processed

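Binding of dmrt93B was measured by ChIP-seq in 2 replicates of 1 group. Per the labels, coordinates are on dm6, and text deposited with the samples describes the lists as narrowPeak files: 1 relaxed list per replicate and 1 for the pooled replicates (30000 entries each) and 1 optimal list past an IDR threshold (4159 entries), made from those 3 lists. The sources used here do not give the aligner, peak caller, threshold or read depth, so intervals cover counting error only. The authors' signal per peak was used to rank and describe peaks within a list; the deposited −log10 q value per peak was at its ceiling of 3.91 in 97.2% of optimal peaks and was not used.

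Summits were compared with every annotated TSS of Ensembl release 115. The member genes had the same start and end in RefSeq Release 6 (62 of 62), whose sequence was used. A gene with several promoter summits was represented by the strongest. Members, lists and alternatives were chosen with earlier results of these data known, and Mediator modules and the comparisons of neighbours and gene bodies after the values were seen. Every member with a strong promoter entry was named, as were listed genes with an optimal promoter summit; sequences are those of the 8 members with the strongest optimal promoter signal. No test was run, since the design has 1 group. The labels call the samples biological replicates and say nothing more of how the larvae were collected. Promoter assignment was tested on simulated data and placed 200 of 200 planted summits correctly. Python 3.11.15, numpy 2.4.6, pandas 2.3.3, scipy 1.17.1 and matplotlib 3.10.9 were used.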

Additional observations from a re-analysis of the deposited data

How the results depend on the processing

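No paired analysis was possible because the samples form 1 group. With a TSS window of 250 or 1000 bp the members with an optimal promoter summit numbered 14 and 18 (9.88% and 15.6% of all genes), and with the most upstream TSS only 17 (11.2% of all genes). Counting only the nearest gene gave 10 of 62 members, 0 of 15 TAF genes and 5 of 76 other Pol II genes, against 9.69% of all genes. The share of the other Pol II genes was then below that of all genes. The same setting gave 5 members with a motif and 0 shared summits by construction. It gave 6 of 62 members found in both replicates, against 5.98% of all genes. The 2079 strongest optimal peaks gave 9 members (8.47% of all genes), 4 Mediator genes, 1 TAF gene, 8 shared summits, 6 members with a motif and a median signal of 421, since weaker peaks are left out. A window of 250 bp left 9 shared summits. The whole pooled list gave 10 of 25 Mediator genes (40%), above the 30.4% of all genes. Below that share were 4 of 15 TAF genes (26.7%), 3 of 13 Polr2 genes (23.1%), 2 of 9 TfII genes (22.2%) and 22 of 76 other Pol II genes (28.9%). The members' median signal in that list was 197. Median GC was 23.5% with 25 bases each side of the summit and 30.3% with 100. Leaving out 1 replicate meant using the strongest 4159 entries of the other replicate's relaxed list. The optimal list was not rebuilt, so these counts repeat the values per replicate given above. This setting gave 14 to 25 members, 7 to 11 Mediator, 3 to 5 TAF, 1 to 3 TfII, 3 to 6 Polr2 and 13 to 21 other Pol II genes, the higher counts without replicate 1. It also gave a median signal of 103 to 148, on the scales of the single lists, and a median GC of 26.7% to 27.7%. The share of all genes was 17.1% without replicate 1 and 10.1% without replicate 2. The median summit position stayed upstream in all settings run, from -141 to -94.5 bp. The cause of the difference between replicates was not tested. The unknown read depth limits what the absence of an entry can show.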
